A study of Mus musculus with 2 samples.

Results

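DNase I cuts DNA where chromatin is open, and DNase-seq counts those cuts along the genome. A footprint is a short stretch inside an open site that is cut less than its flanks. The sites described here are strongly open and count as free of footprints by the rule below. They were chosen by peak values and footprint calls. A site was taken when its replicate 1 peak had a value of 2 or more and overlapped no replicate 1 footprint. It also had to overlap, by at least 1 base, a replicate 2 peak of value 1.5 or more that overlapped no replicate 2 footprint. The value is the authors' read-depth normalised cleavage signal of a peak, and values and footprint calls are therefore given as description only. This left 120 sites among 13623 strong peaks shared by both libraries (0.881%), and among 47198 replicate 1 peaks in all. A footprint was called in both libraries in 13088 of the strong shared peaks, in replicate 1 alone in 281 and in replicate 2 alone in 134.

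The tissue was whole embryonic mouse liver taken on day 13.5, a stage at which red blood cells are made there. Per the labels the mice were of strain C57BL/6N,129, and both libraries carried the LCR deletion and the HET globin mutation. The labels name LCR without spelling it out, and do not give the genotype embryo by embryo. The 2 libraries are replicates 1 and 2 of this 1 group, from separate biosamples under 1 donor identifier. With no control group and n = 2, no test between conditions was possible, and no site is tied here to the mutations. Intervals are 95% intervals over sites or reads, and sites are not replicates. In whole tissue, fewer open cells and less cutting per open cell cannot be told apart.

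Most transcription factors bind DNA within open chromatin and can shield a few bases from DNase I, which is what a footprint records. Factors that stay on DNA only briefly are known to leave weak footprints. At active genes the open region lies at and just before the transcription start, the promoter, where RNA polymerase II assembles. CpG islands, stretches rich in the dinucleotide CG that mostly escape DNA methylation, span many such starts and often reach into the first intron.

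The letters of 4 sites and of 1 neighbouring peak show what these regions look like. The first 3 are the highest sites near a gene start whose windows lie in no exon. The Zbtb7a window is chr10:81136861-81137160, that of Ndel1 is chr11:68852541-68852840, and that of Kctd9 is chr14:67716401-67716640. The fourth, chr7:120835021-120835220, is a site far from any start, upstream of Eef2k. All are from the plus strand of GRCm38, 5′ to 3′, in lower case, with every CG in capitals. They hold 34, 24, 18 and 8 CG. The last line is the peak over the start of Ndel1, chr11:68853136-68853260, without its exon part; there the capitals mark bases inside replicate 1 footprints and not CG.
Zbtb7a, first intron: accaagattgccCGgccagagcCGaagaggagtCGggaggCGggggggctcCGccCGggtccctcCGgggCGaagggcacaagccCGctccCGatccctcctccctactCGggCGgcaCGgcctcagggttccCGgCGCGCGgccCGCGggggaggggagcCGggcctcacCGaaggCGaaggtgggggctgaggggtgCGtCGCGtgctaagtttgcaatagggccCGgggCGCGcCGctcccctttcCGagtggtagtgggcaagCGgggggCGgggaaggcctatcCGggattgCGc
Ndel1, first intron: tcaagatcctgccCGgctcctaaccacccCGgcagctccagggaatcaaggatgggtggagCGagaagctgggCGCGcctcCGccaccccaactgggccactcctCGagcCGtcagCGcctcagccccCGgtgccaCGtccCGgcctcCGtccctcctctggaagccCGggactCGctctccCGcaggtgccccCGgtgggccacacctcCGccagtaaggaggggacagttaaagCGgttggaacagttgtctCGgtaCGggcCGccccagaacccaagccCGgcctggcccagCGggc
Kctd9, first intron: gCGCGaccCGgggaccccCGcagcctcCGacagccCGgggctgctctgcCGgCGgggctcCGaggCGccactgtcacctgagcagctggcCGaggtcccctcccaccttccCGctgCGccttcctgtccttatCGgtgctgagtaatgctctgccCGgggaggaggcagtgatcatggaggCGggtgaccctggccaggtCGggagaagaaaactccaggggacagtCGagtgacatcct
Upstream of Eef2k: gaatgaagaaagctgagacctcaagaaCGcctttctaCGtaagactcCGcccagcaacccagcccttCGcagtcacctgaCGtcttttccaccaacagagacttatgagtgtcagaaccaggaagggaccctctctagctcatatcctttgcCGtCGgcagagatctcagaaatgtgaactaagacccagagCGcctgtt
Ndel1, peak at the start: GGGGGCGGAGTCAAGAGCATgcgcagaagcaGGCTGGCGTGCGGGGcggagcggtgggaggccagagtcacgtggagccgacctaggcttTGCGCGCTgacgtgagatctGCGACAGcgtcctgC
The CG capitals run through the 3 intronic windows, while the site upstream of Eef2k has long stretches without any. In the Ndel1 peak at the start, 5 runs of capitals stand within 125 bases, where the 300 bases of the intronic site have no footprint in either library.

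The values just inside and just outside the threshold lay 1 step of the signal apart. Just inside, the sites at Mcl1, Foxo3 and Ell2 all had 2.01 in replicate 1. Just outside, footprint-free peaks at Rc3h1, Kmt2c and Ube2k all had 1.996. Values over the 120 sites ran from 2.01 to 4.44 in replicate 1 (median 2.39) and from 1.51 to 3.31 in replicate 2 (median 1.95). Values were whole multiples of 1 step, 0.0123 in replicate 1 and 0.0139 in replicate 2. If 1 step is 1 read, which is an assumption, the lowest values that pass the thresholds stand for 163 and 109 reads, against 100 and 90 at the median peak of each library. The sites are therefore strong among all peaks but low among strong ones: strong shared peaks with footprints in both libraries had medians of 5.53 and 3.56.

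**Figure D1:**
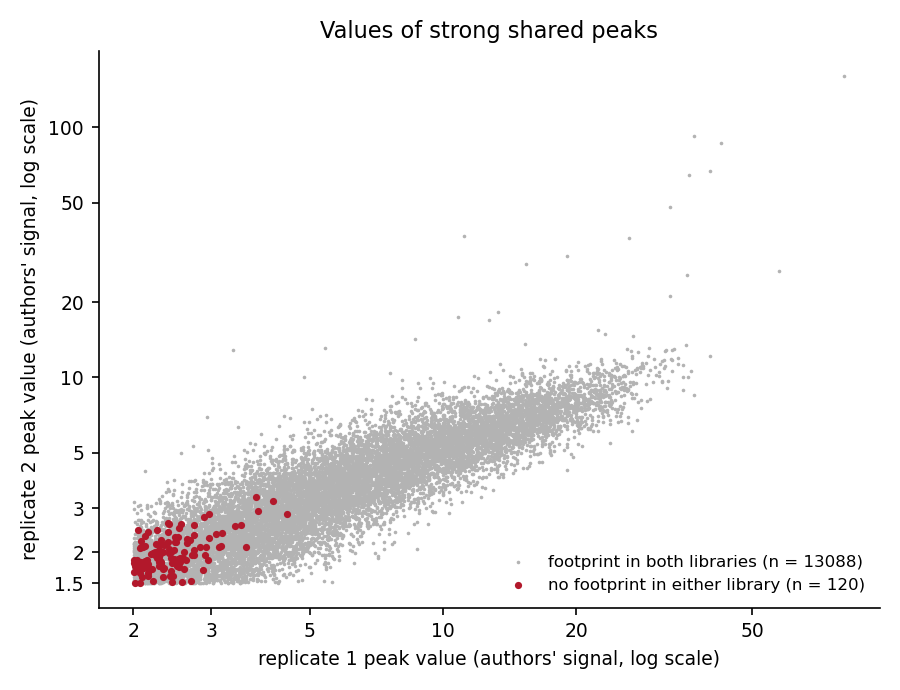
Peak value in replicate 1 against replicate 2 on log scales for strong shared peaks with a footprint in both libraries (grey, 13088 points) and for the footprint-free sites (red, 120 points). The red points fill the low corner, with none above 4.44 in replicate 1.

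Footprint-free sites became rare as the value rose. Without regard to the other library, 378 of 15637 replicate 1 peaks of value 2 or more had no footprint (2.42%), and 884 of 15460 replicate 2 peaks of 1.5 or more (5.72%). Over peaks of every value the shares were 23.2% of 47198 in replicate 1 and 27.3% of 36523 in replicate 2. Among strong shared peaks, 109 of 2637 with a replicate 1 value under 3 were footprint-free in both libraries (4.13%), and 11 of 10986 at 3 or more (0.1%). At 6 or more there were 0 of 5993, which allows up to 0.0615%. The value is itself part of the rule, so this gradient is no finding about the sites. Of the 254 strong shared peaks without a replicate 1 footprint, 47.2% had none in replicate 2 either. Of the 401 without a replicate 2 footprint, 29.9% had none in replicate 1. A peak without a replicate 1 footprint was paired with a footprint-free strong replicate 2 peak where it overlapped one. Peaks with a replicate 1 footprint were paired with the strong replicate 2 peak of most overlap. Both shares, and the counts of peaks by library with a footprint, depend on this choice.

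The authors' false discovery rate was low in the sites. It was made from the same alignments as the peaks, so a low rate in a called peak is no separate evidence of openness. The lowest false discovery rate of the cleavage rate in a site had a median of 12.9 on the −log10 scale in replicate 1 (95% interval 11.7 to 13.6). Footprinted shared peaks with a value under 3 near a gene start had 12.6 (12.1 to 13.1). In replicate 1 each median lay inside the other's interval. In replicate 2 the medians were 9.92 for the sites (8.45 to 10.9) and 11.0 for those peaks, just outside it. No site was in repeated sequence by the measure used, 36-base words found elsewhere in the genome making up 50% or more of the peak (0 of 120, up to 3.03%); 7 sites held any such word.

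Almost every site lay at a gene start. In 115 of 120 the peak came within 1000 bases of a protein-coding start (95.8%, 90.5 to 98.6%), against 75.0% of strong shared peaks with footprints in both libraries and 44.2% of all replicate 1 peaks. Counting the starts of all annotated transcripts, coding or not, 117 did. Yet few sat over the start itself. The start was inside the peak in 19 of 120 sites (15.8%), against 56.0% of the footprinted peaks. The centre lay at least 150 bases downstream, in the direction of transcription, in 84 of the 115 (73.0%, 64.0 to 80.9%), and at least as far upstream in 12. Among 9818 footprinted strong peaks near a start, 10.2% were centred that far downstream. The median centre was 372 bases past the start for the sites and 30 bases before it, at -30, for the footprinted peaks.

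The replicate 2 partners overlap the sites by the rule, so their positions are no separate evidence. Of the 111 distinct partners of sites near a start, 81 were centred 150 or more bases downstream, with a median of 362 bases past the start. Places were read in transcripts that begin at the nearest start. There, 73 of the 115 replicate 1 centres were in the first intron (63.5%), 15 in the first exon and 21 upstream of that start. The other 6 were elsewhere in such a transcript or past its end. The Cited2 site, past the end of such a transcript, still overlapped annotated coding sequence.

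Because the sites are low among strong peaks, footprinted peaks of like value, under 3, were compared too. That limit of 3 and the limit of 150 bases were chosen after the data were seen. Of 1221 footprinted shared peaks under 3 near a start, 24.4% were centred 150 or more bases downstream (22.0 to 26.9%), and the start was inside 62.2%. Seen the other way round, among strong shared peaks under 3, 77 of 481 downstream peaks were footprint-free (16.0%, 12.8 to 19.6%). Near a start but not downstream it was 27 of 1036 (2.61%, 1.72 to 3.77%), and over 1000 bases from a start 5 of 1120 (0.446%). The intervals of these shares do not overlap. Among peaks under 3 near a start, the share was lowest within 50 bases of the start, 5 of 479 (1.04%), and highest from 500 bases on, 34 of 180 (18.9%).

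**Figure D2:**
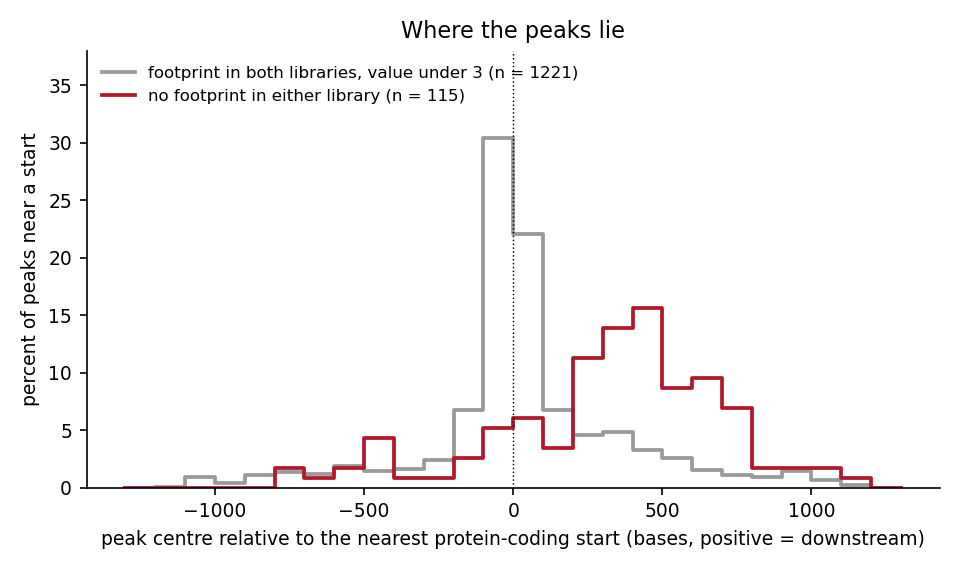
Percent of peaks by distance of the peak centre from the nearest protein-coding start, in bins of 100 bases with downstream to the right, for 115 footprint-free sites (red) and 1221 footprinted strong shared peaks with a value under 3 (grey). The grey line peaks at the start and the red one at 400 to 500 bases downstream.

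**Figure D3:**
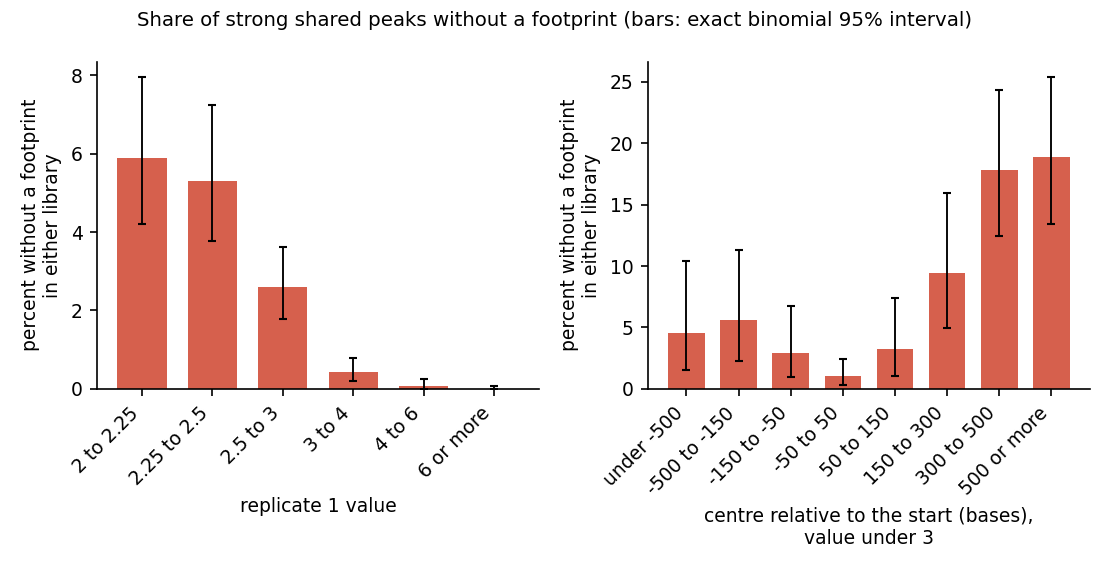
Percent of strong shared peaks without a footprint in either library, by replicate 1 value (left, all strong shared peaks) and by position of the centre relative to the start (right, values under 3 only, near a start), with exact binomial 95% intervals. The share falls from 5.88% at values of 2 to 2.25 to 0 at 6 or more, and rises from 1.04% at the start to 18.9% beyond 500 bases downstream.

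Around the 80 starts that have a site downstream, footprints became fewer just past the start, before most of the sites began. From 50 bases before the start up to it, replicate 1 had a footprint at 85% of these starts and replicate 2 at 78.8%. From 100 to 150 bases past the start the shares were 20% and 16.3%, while sites covered 18.8% of starts. Peaks of any kind became fewer over the same stretch. They were at 73.8% and 80% of starts just before the start, and at 33.8% and 46.3% from 100 to 150 bases past it. From 350 to 400 bases the footprint shares were 3.75% and 0%. Sites covered up to 68.8% of the starts, from 450 to 500 bases past them. Beyond most sites, from 1000 to 1050 bases, footprints were at 2.5% and 6.25% of starts, where 13.8% and 15% had any peak. The absence of footprints inside the sites comes from the rule, while the footprints before the start do not.

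**Figure D4:**
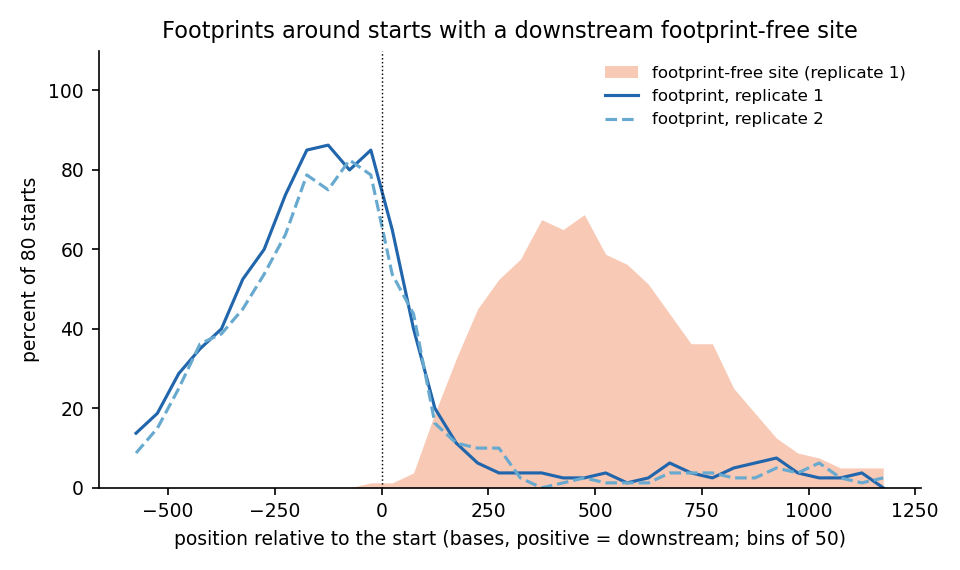
Percent of 80 gene starts with a footprint in replicate 1 (solid line) or replicate 2 (dashed line), and percent covered by a footprint-free site (shaded), by position relative to the start in bins of 50 bases. Both lines stay at 75% or more over the 200 bases before the start and fall to 3.75% and 0% at 350 to 400 bases past it.

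The typical site was the lower neighbour of a tall, footprinted promoter peak. Another peak lay within 500 bases of 110 of the 120 sites in replicate 1 and of 115 in replicate 2. In replicate 1 another peak within 100 bases of the same start was called for 79 of the 115 sites near one, and its highest value is used here. Those start peaks had a median of 14.0 beside 2.34 for their sites, 5.75-fold (5 to 6.56), and were higher in 77 of 79. Their range, 1.66 to 29.4, overlapped that of the sites; the start peak was the lower one at Zbtb7a and Ncoa2. In replicate 2 there were 85 such pairs, with medians of 6.68 and 1.95, 3.21-fold (2.93 to 3.64), and the start peak was higher in 83. The start peak held a footprint in 77 of 79 and in all 85, with a median of 6 footprints in each library. The median gap between the site and the start peak was 260 bases in each library. Not every start peak stood apart from its site, because called peaks can overlap. At E2f1 the replicate 1 start peak covered the whole site. At Cbx3 the replicate 2 start peak had the same span as the site.

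A start peak, and a higher one, was more frequent beside the sites than beside footprinted peaks in the same downstream range. Position and value were not matched within that range. Of the 77 sites 12 were centred 150 to 300 bases past the start, and of the 298 footprinted peaks 93. Of the 77 sites under 3 downstream of a start, 81.8% had a start peak in replicate 1 (71.4 to 89.7%), and 62 of these 63 start peaks were higher than the site (98.4%, 91.5 to 99.96%). Of 298 footprinted peaks under 3 at the same range of positions, 64.4% had one (58.7 to 69.9%), and it was higher in 137 of 192 (71.4%, 64.4 to 77.6%). The median fold of the start peak was 5.75 (4.81 to 6.92) beside the sites and 1.51 (1.30 to 1.72) beside the footprinted peaks. In replicate 2 the folds were 3.19 (2.89 to 3.66) and 1.30 (1.20 to 1.43). The intervals of the folds do not overlap in either library. Whether the start peak held a footprint differed little. In replicate 1 it did in 62 of 63 beside the sites (98.4%, 91.5 to 99.96%) and in 182 of 192 beside the footprinted peaks (94.8%, 90.6 to 97.5%). In replicate 2 it was 100% (94.7 to 100%) and 96.9% (92.9 to 99.0%), and the intervals overlap in each library. The 298 footprinted peaks held a median of 3 footprints in each library. Whether a tall neighbour affects footprint calling in a low peak was not tested.

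**Figure D5:**
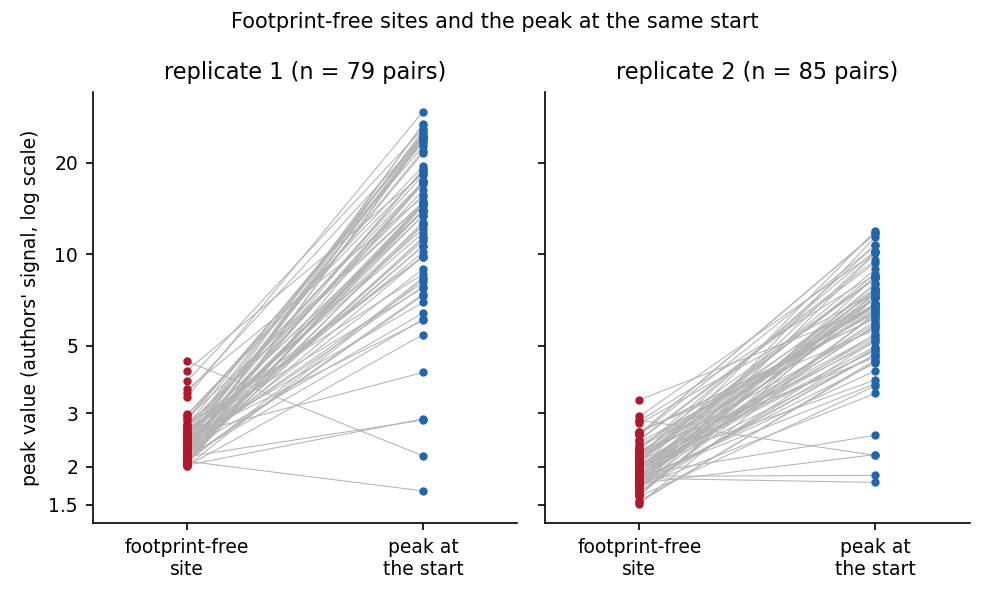
Value of each footprint-free site (red) and of the other peak called at the same gene start (blue) on a log scale, joined by lines, for 79 pairs in replicate 1 and 85 in replicate 2. Lines rise in 77 and 83 pairs.

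The nearest footprint was usually outside the immediate flank. In each library the distance was taken from the peak called there, the site in replicate 1 and its partner in replicate 2. It had a median of 221.5 bases in replicate 1 and 241.5 in replicate 2, with a minimum of 27 and 34. A footprint came within 100 bases of 20 sites and of the partners of 21, and within 500 bases of 109 and 111. From the replicate 1 edges, the nearest replicate 2 footprint was 235 bases off at the median, but 5 sites overlapped one that lay outside the partner. These were the sites at Rsrp1, Klf16, Abcb6, Osbpl8 and Cbx3.

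In sequence, the sites were CG-rich, as promoters are. GC content in the central 200 bases had a median of 67.8% (range 48.5 to 81%), and the number of CG a median of 16 (range 3 to 34), with 10 or more in 105 of 120 sites. All replicate 1 peaks had medians of 57.5% and 7, and footprinted strong shared peaks 64% and 16. The 298 footprinted peaks under 3 downstream of a start had 68.5% and 18. The 77 sites under 3 downstream had 68% (65.5 to 70%) and 18 (15 to 19), intervals that hold both of those medians. Sites were broad, with a median width of 300 bases (range 80 to 860), against 220 for footprinted strong shared peaks and 280 for the 298.

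Consensus matches were counted in the same 200 bases on both strands, for 30 patterns. The box of KLF factors, CCNCNCCC, where KLF1 is the main erythroid member, was in 76 of 120 sites (63.3%, 54.1 to 71.9%). It was in 60.1% of footprinted strong shared peaks and in 44.8% of all replicate 1 peaks. Some patterns typical of promoters, but not all, were less frequent in the sites than in footprinted strong peaks. The YY1 pattern AAGATGG was in 7 sites against 687 of 13088 such peaks, and the MYC pattern CACGTG in 12 against 1117. These 2 were not less frequent. The NF-Y box (CCAAT, then any base but T) was in 13 sites (10.8%, 5.90 to 17.8%) against 28.9%. The ETS pattern CCGGAAG was in 6 (5%, 1.86 to 10.6%) against 14.7%, and the NRF1 palindrome in 1 (0.833%, up to 4.56%) against 9.83%. With values of 3 and 2 or more, NF-Y was in 36.4% of sites (10.9 to 69.2%) and ETS in 18.2% (2.28 to 51.8%). Both are above the shares given here for footprinted peaks, while NRF1 was in 0%. The GATA pattern (GATAA after A or T) was in 5 sites (4.17%, 1.37 to 9.46%) against 9.12%, and in 15.4% of all replicate 1 peaks. With 1 library alone choosing the sites, the GATA share was 8.99% without replicate 2 and 8.03% without replicate 1, near that of footprinted peaks, and the NRF1 share 2.12% and 0.679%. The core pattern of the insulator protein CTCF was in 7 sites (5.83%, 2.38 to 11.6%) against 13.7%.

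Within the same limits of position and value, the 77 sites and the 298 footprinted peaks under 3 downstream of a start were compared. KLF was in 55.8% of these sites (44.1 to 67.2%) and 61.1% of the peaks, and NF-Y in 5.19% (1.43 to 12.8%) and 7.72%. ETS was in 2.60% (0.316 to 9.07%) and 8.05%, NRF1 in 1.30% (0.0329 to 7.02%) and 3.02%, and CTCF in 7.79% (2.91 to 16.2%) and 12.4%. For these 5 patterns the share in the peaks lay inside the interval of the sites. GATA was in 1 of the 77 sites (1.30%, 0.0329 to 7.02%) and in 8.72% of the peaks (5.78 to 12.5%), outside the interval of the sites, though the intervals overlap. The GC box of SP factors, GGGGCGGGG, was in 14 sites (11.7%, 6.53 to 18.8%), in 9.4% of those 298 and in 17.6% of all footprinted strong shared peaks. Of the 30 patterns, 11 had no match in any site, among them the full CRE site TGACGTCA. CRE was in 402 of 13088 footprinted strong shared peaks, in 1 of the 298 and in 569 of all 47198 replicate 1 peaks. Others of the 11 were rarer, such as MEF2 in 51 and NFI in 19 of all replicate 1 peaks. The missing matches are therefore not read as a result. A match describes letters only and says nothing of a bound factor, and a missing match only that the letters are not in this window.

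The highest sites near a start belonged to genes of varied roles. The highest was in the first intron of Zbtb7a, a zinc finger repressor that silences embryonic and fetal globin genes in red cells. It spans chr10:81136841-81137180, with 4.44 in replicate 1 (Poisson interval 3.99 to 4.92) and 2.84 in replicate 2 (2.47 to 3.26). Its start peak was lower than the site, at 2.17 and 2.18, unlike nearly all others. Another peak in replicate 1, 160 bases from the site, reached 22.6 with 8 footprints.

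Zfyve21, a FYVE domain protein, had a first-intron site at chr12:111814341-111814620 of 4.14 and 3.20, beside a replicate 1 start peak of 18.3. Ndel1, a partner of the motor dynein, had a site at chr11:68852501-68852880 of 3.82 and 2.92, beside start peaks of 25.9 and 10.1. The Kctd9 site, which is the whole window printed above, had 3.78 and 3.31. The site at chr4:134924181-134924540, in the second exon of Rsrp1, had 3.59 and 2.09. It overlapped a replicate 2 footprint outside its partner, and an annotated start lay inside it. All of these sites were higher in replicate 1, the Rsrp1 site by the most.

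Nup153, a subunit of the nuclear pore basket, had 2 overlapping sites, the higher at chr13:46727161-46727840, with 3.50 and 2.74 in replicate 1 that share 1 replicate 2 partner of 2.56. Nfya, a subunit of the CCAAT-binding factor NF-Y, had 3.39 and 2.54 at chr17:48408941-48409280, beside start peaks of 29.4 and 10.7. Zfp524 had 3.17 and 2.38 at chr7:5015641-5015760, centred 106 bases before its start, at -106. Sin3a, the scaffold of a histone deacetylase complex, had 3.15 and 2.12 at chr9:57075301-57075480, centred 53 bases past the start. Neither Zfp524 nor Sin3a had a separate start peak in either library, and the Sin3a site contains the start.

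The intervals of neighbours in this order overlapped: from Zfyve21 (3.71 to 4.61) to Rsrp1 (3.19 to 4.02), no site stood apart beyond counting error in replicate 1. Over all 120 sites, 109 had a lower value in replicate 2 and 11 a higher one, and the log2 ratio of the replicate 2 value to that of replicate 1 had a median of -0.28 (-0.37 to -0.23). Footprinted strong shared peaks had -0.71, and those under 3 near a start -0.23. The scaling between libraries is not stated in the labels or headers, so these ratios do not say which library was more open.

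The 5 sites over 1000 bases from a protein-coding start were mixed. The Eef2k site lay 7611 bases upstream of that gene, a kinase of translation elongation factor 2, with 2.62 and 1.86. The site in a coding exon of Grhpr, a glyoxylate reductase, lay 12509 bases past its start with 2.70 and 1.54; its nearest replicate 1 footprint was 12280 bases off. Phf12, a PHD finger cofactor of Sin3, had an exonic site of 2.11 and 1.73 at 1219 bases. The site whose nearest protein-coding gene is A830005F24Rik had 2.54 and 2.495 and was 408 bases from the start of Gm37238. The Bbc3 site had 2.44 and 1.82 and was 64 bases from another annotated start of that gene, which encodes the cell death protein PUMA. So 3 sites were over 1000 bases from any start.

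By gene group, sites were sparse wherever they were counted. Of 9107 protein-coding genes with a strong shared peak within 1000 bases of a start, 135 had a site there (1.48%). Among the listed erythroid regulators it was 1 of 11, Zbtb7a, and among the listed erythroid membrane and heme genes 0 of 24. There were 0 of 77 cytosolic ribosomal protein genes, 0 of 70 mitochondrial ribosomal protein genes and 0 of 85 respiratory chain genes. Likewise it was 0 of 44 proteasome genes, 0 of 45 DNA replication genes and 0 of 55 listed spliceosome genes. Rab GTPases had 0 of 39, the housekeeping list 0 of 12, and blood progenitor, hepatoblast and lymphoid genes 0 of 3, 0 of 2 and 0 of 1. At 1.48% none of these lists would hold as many as 2 sites, so a count of 0 is not read as a result. The lists are also incomplete. Phf5a (3.07 and 2.37) and Abcb6 (2.29 and 1.97) had sites and are in none of these lists.

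Groups with sites were few too. Replication-dependent histone genes had 2 of 56, Hist1h2ac and Hist1h2bc, which share 1 site of 2.33 and 2.00. Zfp zinc finger genes had 2 of 201 (Zfp524 and Zfp91), solute carriers 2 of 125 (Slc30a1 and Slc39a7), and translation factors 1 of 57 (Eif4b). The site of Zfp91 is nearest to the start of Lpxn (2.39 and 2.61), and that of Slc39a7 to the start of Rxrb, a retinoid receptor (2.19 and 1.97). Ubiquitin conjugation enzymes had 1 of 35 (Ube2d3). The homeobox, Sox, Pax, T-box and forkhead list had 2 of 21, both forkhead genes, Foxn3 with 2.17 and 1.69 and Foxo3 with 2.01 and 1.82.

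Chosen after the values were seen, several genes of chromatin and genome folding stood in the list. Cohesin, the ring that holds DNA loops, had 3 of 12 genes: the subunits Smc3 (2.60 and 2.01) and Rad21 (2.11 and 2.09) and the loader Mau2 (2.07 and 1.51). The listed genes of hnRNP proteins, which package nascent RNA, had 4 of 24: Ptbp1, Hnrnpk, Hnrnpm and Hnrnph3. Hnrnpa2b1, which that list left out, also had a site. The bZIP factors of the stress and cAMP responses had 4 of 15: Ddit3 (2.88 and 2.77), Atf4 (2.64 and 2.18), Atf6b (2.33 and 1.59) and Creb1 (2.22 and 1.98). The BCL2 family had Mcl1, 1 of 9. Ezh2, the H3K27 methyltransferase, had 2.53 and 2.30, and the remodeller Ino80 2.94 and 1.86. Since these groups were made from the sites, their counts are not evidence of a theme.

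Across the genome, the 120 sites covered 39870 bases in 117 separate stretches on all 19 autosomes, with none on X or Y. They have 116 distinct replicate 2 partners and 116 nearest genes, so a few sites share a gene or partner and are not independent. All 120 overlapped a peak of the authors' shorter replicate 1 list and 117 one of the shorter replicate 2 list.

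The tissue label was checked at promoters. The erythroid genes Gata1, Klf1, Tal1, Epor, Tfrc and Slc4a1 had a promoter peak in both libraries, from 3.01 to 18.1 in replicate 1 and from 1.29 to 7.46 in replicate 2. Of the hepatoblast genes, Alb, Afp, Hnf4a and Dlk1 had none in either library, and Foxa2 had 0.776 in replicate 1 alone. The endothelial genes Cdh5 and Pecam1, the macrophage genes Adgre1, Cd163 and C1qa, and the megakaryocyte genes Pf4 and Gp9 had none. Kdr had 0.887 and 0.693, and Itga2b 0.832 in replicate 2 alone. Over the longer lists, 11 of 14 erythroid regulators and 2 of 19 hepatoblast genes had a strong shared peak within 1000 bases of a start.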

How the data were processed

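Per the labels, DNase-seq was run on 2 libraries of embryonic liver and aligned to mm10 (GRCm38). Per the file headers, the authors made peaks, footprints and false discovery rates along the genome from each library's own alignments, without pooling. Callers and thresholds are not stated in the labels or headers. The value is the authors' depth-normalised signal per peak. The deposited footprint score is a constant 0.01, so positions alone were used. The deposited false discovery rate is a q-value, a p-value adjusted for many tests, listed under 0.05.

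The longer peak list was used. From it were computed overlaps (1 base), distances to GENCODE M21 starts, GC and CG in the central 200 bases of RefSeq GRCm38 sequence, repeated 36-base words and motif matches. A downstream peak is centred 150 or more bases past its start. Shares have exact binomial (Clopper-Pearson) intervals and medians have order-statistic intervals, at 95%. Poisson intervals of single values assume 1 step is 1 read (depth then 81.2 and 72.1 times 1000000 reads) and cover counting error only. Depth is not otherwise given. No tests were made.

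Named were the 10 highest sites near a start (1 of them is not reported here), those over 1000 bases from one, all in a gene list, and the 3 peaks on each side of the threshold; other names were chosen after seeing values. Sites, lists and comparisons were chosen with earlier results of these data known. Overlap and motif counting was tested on simulated data. Alternatives covered thresholds, margins, lists, windows, distances, repeats and each library alone. Python 3.11.15, numpy 2.4.6, pandas 2.3.3 and scipy 1.17.1 were used.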

Additional observations from a re-analysis of the deposited data

How the results depend on the processing

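The median log2 ratio kept its sign under every alternative that had both libraries. The comparisons with footprinted peaks were not repeated under the alternatives. With values of 3 and 2 or more, 11 sites were left; 100% were near a start, with a median GC of 70%, 24 CG, a log2 ratio of -0.42, 63.6% downstream and a centre 259 bases past the start. Taking each library alone gave between 378 and 884 sites, of which 85.5% to 88.9% were near a start. Those near a start were then downstream in 60.6% to 64.3%, and the centre was 282.5 to 301 bases past the start, against 73.0% and 372 bases with both. A start within 500 bases was found for 79.2% of sites, a 100-base window held 9 CG at the median, and sites with any repeated word made up 5.83%. A footprint margin of 20 bases left all 120 sites. Requiring 50% cover by the replicate 2 peak left 105, the shorter lists 118, and counting overlapping sites once, an alternative added after seeing the data, 117. The other 59 values stayed within the intervals of the values reported, or within 1.5 times for counts. Of the 70 motif shares under alternatives 10 left the interval of the reported share, all with higher values or the 100-base window. With higher values KLF rose to 72.7%, NF-Y to 36.4% and ETS to 18.2% of the 11 sites, and NRF1 and SP fell to 0%. The shares that left it with the 100-base window all fell. The log2 ratio needs both libraries and has no value with 1 left out. No paired analysis was possible because there is only 1 group. At 2 libraries, spread between samples could not be measured beyond the values side by side.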
